A study of Homo sapiens with 10 samples.

Results

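The 5 classes of core and linker histone are encoded in humans largely by families of related genes that lie together in clusters, named HIST1 on chromosome 6, HIST2 and HIST3 on chromosome 1 and HIST4 on chromosome 12. The genes described here are the 71 rows, of 58735 in the count table, that are annotated as protein-coding and whose symbol begins with HIST1, HIST2, HIST3 or HIST4. They comprise 6 genes for linker histone H1, 17 for H2A, 18 for H2B, 15 for H3 and 15 for H4. By cluster, 55 are in HIST1, 12 in HIST2, 3 in HIST3 and 1 in HIST4. The samples were 10 bulk RNA libraries of CH157-MN, a long-established line of human meningioma cells. Cells of the PBS group (n = 5) received phosphate-buffered saline. Cells of the ADC group (n = 5) received 100 nM of a humanised antibody against the somatostatin receptor SSTR2 linked to MMAF, a toxin that blocks tubulin polymerisation, and were harvested at day 3. A harvest day is given for the treated cells alone. Nothing in the labels says that replicates were separate cultures, and p-values then reflect the spread of these libraries only, which can be technical.

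Most clustered histone genes are replication-dependent: they are transcribed during S phase to supply histones for new chromatin. Their messages are unusual in ending not in a poly(A) tail but in a short stem-loop. The stem-loop is bound by the stem-loop binding protein SLBP, and the cleavage that forms this end is guided by the U7 small nuclear ribonucleoprotein. Some of these genes can also be transcribed past the stem-loop to a conventional polyadenylation site, a form known from differentiated and non-dividing cells. Genes for replication-independent histones lie outside the clusters and mostly give ordinary polyadenylated messages. The libraries were made from RNA selected on poly-T beads, so the values below are levels of histone RNA retained by that selection, and neither the stem-loop messages of the cells nor their histone protein was measured. In bulk RNA a change in the number of cells of a kind and a change in RNA per cell cannot be told apart.

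The stem-loop is shown because it divides the gene models that were counted. Among 71 members, 31 had a model in GENCODE release 29 whose transcript sequence held it downstream of the stop codon. The 4 commonest forms are given below as DNA in the direction of transcription, with the paired stem in capitals and the loop in lower case. The first was found in 17 members, among them HIST1H2AC and HIST2H2BE. The second was found in 5, among them HIST1H2BC and HIST1H2BD. The third, in 5 members, and the fourth, in 3 members that include HIST1H4I, were found only in H4 genes of this set.
stem-loop form 1: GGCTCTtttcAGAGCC
stem-loop form 2: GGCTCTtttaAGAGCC
stem-loop form 3: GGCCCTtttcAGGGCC
stem-loop form 4: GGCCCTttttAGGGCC

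The gene models differ in how far they run past this element. The models of 34 members were single exons that ended at the stop codon. Those of 26 members were extended or spliced, with more than 1 exon or at least 200 bases after the stop codon, and 11 were other short single exons. HIST1H2AC has a model that runs up to 1128 bases past the stem-loop, HIST2H2BE 1729 bases and HIST1H4I 212 bases. If reads were counted on these models, whose ends match the table's, the counts of those 34 genes include no reads from beyond the stop codon. HIST1H2BK, whose model has 381 bases, and HIST1H1C, whose model has 642 bases, are among them.

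Promoters are shown for 5 H2A and H2B genes, 4 that were called higher after ADC treatment and 1, HIST1H2BJ, that was not called and whose promoter is close in sequence to that of HIST1H2BK. HIST1H2BJ was chosen after its values were seen. Each window runs from 250 bases before to 50 after the transcription start given by RefSeq on GRCh38.p14, printed in the direction of transcription. The windows are chr6:26123922-26124221 on the plus strand for HIST1H2AC, chr6:26157872-26158171 on the plus strand for HIST1H2BD, chr6:27146806-27147105 on the minus strand for HIST1H2BK, chr6:27132746-27133045 on the minus strand for HIST1H2BJ and chr1:149886633-149886932 on the minus strand for HIST2H2BE. Capitals mark 3 motifs found on either strand: the octamer ATTTGCAT, known as the site of the transcription factor OCT1 in H2B promoters, the CCAAT box and TATAAA. The window of HIST1H2AC also holds the start of HIST1H2BC, which is transcribed the other way.
HIST1H2AC: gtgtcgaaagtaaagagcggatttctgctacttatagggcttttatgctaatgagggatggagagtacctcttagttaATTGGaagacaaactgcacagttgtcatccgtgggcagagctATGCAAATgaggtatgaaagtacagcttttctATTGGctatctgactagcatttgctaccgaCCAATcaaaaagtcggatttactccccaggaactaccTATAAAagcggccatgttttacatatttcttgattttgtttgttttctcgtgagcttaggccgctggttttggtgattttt
HIST1H2BD: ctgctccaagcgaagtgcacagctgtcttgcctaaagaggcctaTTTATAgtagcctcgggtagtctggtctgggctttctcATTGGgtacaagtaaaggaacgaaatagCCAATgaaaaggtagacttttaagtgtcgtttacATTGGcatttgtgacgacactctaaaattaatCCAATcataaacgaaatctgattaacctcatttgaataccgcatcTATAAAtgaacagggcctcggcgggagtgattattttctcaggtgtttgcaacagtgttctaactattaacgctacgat
HIST1H2BK: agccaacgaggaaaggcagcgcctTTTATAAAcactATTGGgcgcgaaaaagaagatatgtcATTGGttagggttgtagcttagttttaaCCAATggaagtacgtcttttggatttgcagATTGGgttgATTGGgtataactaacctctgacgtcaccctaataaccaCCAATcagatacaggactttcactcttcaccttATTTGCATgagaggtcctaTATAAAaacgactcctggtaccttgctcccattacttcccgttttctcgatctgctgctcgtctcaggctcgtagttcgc
HIST1H2BJ: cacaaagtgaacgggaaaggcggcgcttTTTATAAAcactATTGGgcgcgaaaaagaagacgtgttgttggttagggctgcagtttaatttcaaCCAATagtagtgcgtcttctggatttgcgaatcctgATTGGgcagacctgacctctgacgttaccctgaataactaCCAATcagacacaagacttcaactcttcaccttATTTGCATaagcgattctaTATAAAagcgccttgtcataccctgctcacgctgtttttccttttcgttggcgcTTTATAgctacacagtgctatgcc
HIST2H2BE: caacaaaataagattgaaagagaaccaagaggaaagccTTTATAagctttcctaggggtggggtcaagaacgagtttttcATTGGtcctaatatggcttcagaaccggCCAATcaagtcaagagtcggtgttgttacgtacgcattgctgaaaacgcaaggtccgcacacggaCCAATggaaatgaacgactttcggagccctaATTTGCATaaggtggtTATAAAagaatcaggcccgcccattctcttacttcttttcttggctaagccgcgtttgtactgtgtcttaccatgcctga

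RefSeq promoters were matched for 66 of the 71 genes. The octamer was in 25 of those 66 (37.9%) and in 623 of 35116 promoters of all genes (1.77%). It was in 11 of 16 H2A promoters and 14 of 18 H2B promoters, and in no H1, H3 or H4 promoter of the set. CCAAT was in 84.8% of the 66 and 34.6% of all promoters, and TATAAA in 68.2% and 11.5%. A match is a description of the letters and not evidence of binding.

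Of the 71 genes, 17 had 0 counts in all 10 libraries and 54 had at least 1 count. Levels are given as CPM, counts scaled to the library total with TMM factors. A count of 0 allows up to 3 counts in a library, which is 0.0823 to 0.106 CPM before the TMM factors. This limit covers counting error only. A filter on low counts left 29 members for the test, and 25 more had counts that never exceeded 22 in a library. The total counts were 28262162 to 34473795 per PBS library and 28638057 to 36463724 per ADC library. Small counts were even in 65.4% to 67.3% of cases, against 49.0% to 50.6% of counts of 1000 or more, so both mates of a pair may have been counted and 2 counts can come from 1 fragment.

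The label of the line was set against markers, and RNA of other kinds was measured beside the histone genes. Of 8 meningioma markers, VIM had 3395 ± 122.8 CPM under PBS and 3535 ± 67.5 under ADC (mean ± SD, n = 5). SSTR2, the target of the antibody, was at 0.297 ± 0.263 and 0.429 ± 0.103 CPM, and PGR and SLC47A1 had 0 counts throughout. A further 3 of the 8 were too low to be tested, with at most 4 counts in a library. The 8 summed to 3396 CPM under PBS and 3536 under ADC, nearly all of it VIM. The summed level of 7 leukocyte markers was 0.579 to 2.40 CPM under PBS and 2.05 to 3.01 under ADC, with CD3E and LYZ at 0. Most of that sum was CSF1R, at 1.26 ± 0.682 and 2.10 ± 0.341 CPM (log2 fold change 0.72 ± 0.29, edgeR adjusted p = 0.0809, not called), and CD14 was at 0.136 ± 0.112 and 0.367 ± 0.125 CPM, too low to be tested. The sum of 4 fibroblast markers was 4.19 to 6.26 CPM against 6.35 to 9.25, with DCN at 0 in PBS. Of these 4, 2 were tested (PDGFRA and COL3A1) and both were called higher. COL3A1 was not called without PBS 1 (edgeR adjusted p = 0.0518) or ADC 1 (adjusted p = 0.123). The sum of 5 endothelial markers was 1.48 to 2.996 CPM against 3.24 to 4.87, with CDH5 at 0 in PBS. Of these 5, 3 were tested, 1 (PECAM1) was called higher and 2 were not called. Over all genes tested, 10.8% were called higher. Among 15 genes for RNA that normally carries no poly(A) tail, 12 were at 0. Exons of other genes on the same strand cover 100% of RN7SL1, RN7SK, RPPH1 and SCARNA2 and 81.0% of TERC, all at 0. How such shared reads were counted is not given, so a 0 there does not show that the RNA was absent. SCARNA5 and SCARNA6, also at 0, and RN7SL2 have no such overlap. RN7SL2, the RNA of the signal recognition particle, was at 17.0 ± 4.02 CPM in PBS and 23.0 ± 4.35 in ADC libraries (log2 fold change 0.44, edgeR adjusted p = 0.00962, 0.0936 with DESeq2), with overlapping groups. All small nucleolar RNA rows together gave 15.3 to 20.4 CPM in PBS and 9.63 to 15.6 in ADC libraries. The part of these differences in the results below was not tested.

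Of the 29 clustered histone genes tested, 8 were higher after ADC treatment and 0 were lower, at an edgeR adjusted p of 0.05 or below. Over all 14504 genes tested, 10.8% were called higher and 10% lower. The 8 were HIST1H1C for H1, HIST1H2AC for H2A, HIST1H2BC, HIST1H2BD, HIST1H2BK and HIST2H2BE for H2B, HIST1H3E for H3 and HIST1H4I for H4. At an unadjusted p under 0.05, 9 members were higher and 0 lower, the ninth being HIST3H2A, and DESeq2 and limma-voom also called 8 higher and 0 lower. The median log2 fold change of the 29 was 0.32, against -0.002 over all genes tested. Of the 29, 22 had a positive and 7 a negative log2 fold change. In 7 of the 29 every ADC library lay above every PBS library, against 7.29% of all genes tested, and in 0 every ADC library lay below, against 6.95%. The filter keeps a gene with enough counts in 5 libraries, so a gene high in 1 group can pass through that group alone.

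**Figure D1:**
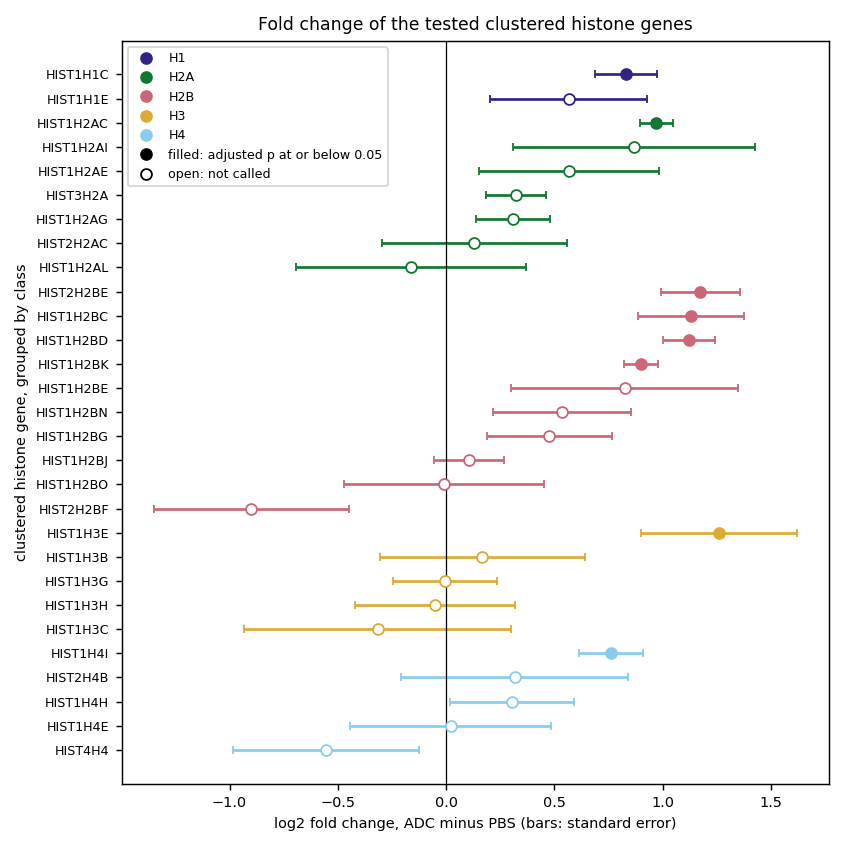
Log2 fold change (ADC minus PBS, horizontal axis) of the 29 tested clustered histone genes, grouped by class, with bars for the standard error; filled points are the 8 genes called higher and open points the 21 not called. The fold changes run from -0.90 for HIST2H2BF to 1.26 for HIST1H3E, and the bars are widest for genes with few counts.

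Values in the paragraphs that follow are TMM-scaled CPM in libraries 1 to 5 of each group, then the mean ± SD (n = 5 libraries per group). H1 linker histones bind the DNA that enters and leaves the nucleosome. HIST1H1C (chr6:26055787-26056428, minus strand, identifier ENSG00000187837), which encodes H1.2, had 4.10, 4.32, 5.21, 3.99 and 3.38 CPM in PBS and 7.51, 8.08, 8.10, 5.05 and 8.55 in ADC libraries. The means were 4.20 ± 0.662 and 7.46 ± 1.40, with a log2 fold change of 0.83 ± 0.14 (SE, edgeR adjusted p = 6.18e-05). Library ADC 4 lay below the highest PBS library, and the other ADC libraries lay above all PBS libraries. HIST1H1E, which encodes H1.4, was the other H1 gene tested, at 0.603 ± 0.208 and 0.893 ± 0.248 CPM (log2 fold change 0.57 ± 0.36, adjusted p = 0.297), with overlapping groups. HIST1H1C made up 81.2% of the H1 CPM under PBS and 86.7% under ADC. HIST1H1B and HIST1H1D had at most 14 counts in any library, and HIST1H1A and the testis gene HIST1H1T had 0.

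H2A pairs with H2B in the nucleosome core. HIST1H2AC (chr6:26124145-26139116, plus strand, ENSG00000180573) had more counts than any other member. Its libraries had 14.3, 15.02, 17.2, 14.5 and 15.6 CPM under PBS and 29.2, 34.3, 27.0, 28.4 and 31.4 under ADC. The means were 15.3 ± 1.16 and 30.0 ± 2.87 CPM, a log2 fold change of 0.97 ± 0.08 (edgeR adjusted p = 3.44e-11). The groups were far apart, with the lowest ADC library well above the highest PBS library. HIST3H2A, of the HIST3 cluster, had the next most counts of the class and was not called, at 3.74, 6.22, 5.28, 5.87 and 4.80 CPM in PBS and 7.48, 6.55, 5.52, 7.28 and 5.53 in ADC libraries. Its log2 fold change was 0.32 ± 0.14 (adjusted p = 0.0969), and 0.40 without library PBS 2 (adjusted p = 0.0462), where it passed the threshold. The groups of HIST3H2A overlapped.

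The other 5 H2A genes tested were not called. Their log2 fold changes ran from -0.16 for HIST1H2AL to 0.87 for HIST1H2AI, with standard errors up to 0.56. HIST1H2AC made up 59.2% of the H2A CPM under PBS and 69.5% under ADC, and HIST3H2A 20.02% and 14.98%. HIST2H2AA4 was too low to be tested, with 2, 2, 1, 2 and 3 counts in PBS and 9, 10, 11, 12 and 8 in ADC libraries. Its groups did not overlap. It shares 96.8% of its 100-base windows with other genes, chiefly its copy HIST2H2AA3, so reads of the pair cannot be assigned with certainty. HIST2H2AA4 was chosen after its values were seen and was not called when the filter was dropped.

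H2B had the most genes called. HIST1H2BK (chr6:27146418-27146798, minus strand, ENSG00000197903) had 12.4, 14.4, 12.7, 11.3 and 13.9 CPM in PBS and 22.8, 26.2, 24.6, 24.2 and 22.9 in ADC libraries. The means were 12.9 ± 1.25 and 24.1 ± 1.41, with a log2 fold change of 0.90 ± 0.08 (edgeR adjusted p = 4.81e-10). HIST1H2BD (chr6:26158146-26171349, plus strand, ENSG00000158373) had 4.25, 4.56, 3.81, 5.83 and 4.65 CPM in PBS and 10.5, 11.1, 9.18, 8.96 and 10.4 in ADC libraries. Its means were 4.62 ± 0.751 and 10.04 ± 0.926 (log2 fold change 1.12 ± 0.12, adjusted p = 2.35e-08). Neither gene's groups overlapped. GENCODE gives HIST1H2BD a single-exon transcript that holds the stem-loop and a spliced transcript without it, and the table does not divide the counts between them.

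HIST2H2BE (chr1:149884459-149886652, minus strand, ENSG00000184678) was the HIST2 gene that was called. It had 1.96, 2.22, 1.87, 2.01 and 1.79 CPM in PBS and 5.46, 4.42, 2.98, 3.78 and 5.67 in ADC libraries. The means were 1.97 ± 0.162 and 4.46 ± 1.13, a log2 fold change of 1.18 ± 0.18 (edgeR adjusted p = 1.68e-05). HIST1H2BC (chr6:26114873-26123926, minus strand, ENSG00000180596) had 1.19, 0.711, 1.29, 0.954 and 0.912 CPM in PBS and 2.37, 2.43, 2.28, 1.85 and 2.14 in ADC libraries, with means of 1.01 ± 0.232 and 2.21 ± 0.230 (log2 fold change 1.13 ± 0.24, adjusted p = 0.00098). Both genes were higher in every ADC library than in any PBS library. The ADC libraries of HIST2H2BE were widely spread, and its PBS libraries were close together.

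The other 6 H2B genes tested were not called. HIST1H2BJ was at 3.599 ± 0.728 CPM in PBS and 3.87 ± 0.465 in ADC libraries (log2 fold change 0.10 ± 0.16, adjusted p = 0.709). HIST1H2BJ lies within the HIST1 cluster on the same strand as HIST1H2BK. Their printed promoters are identical at 224 of 306 aligned positions (73.2%), against 44.5% to 53.2% for every other pairing of the 6 promoters compared, and both hold the octamer. HIST2H2BF had the lowest log2 fold change of the 29, -0.90 ± 0.45 (adjusted p = 0.167), with 0.238 to 0.848 CPM in PBS and 0.172 to 0.462 in ADC libraries. HIST1H2BJ and HIST2H2BF were named after their values were seen.

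**Figure D2:**
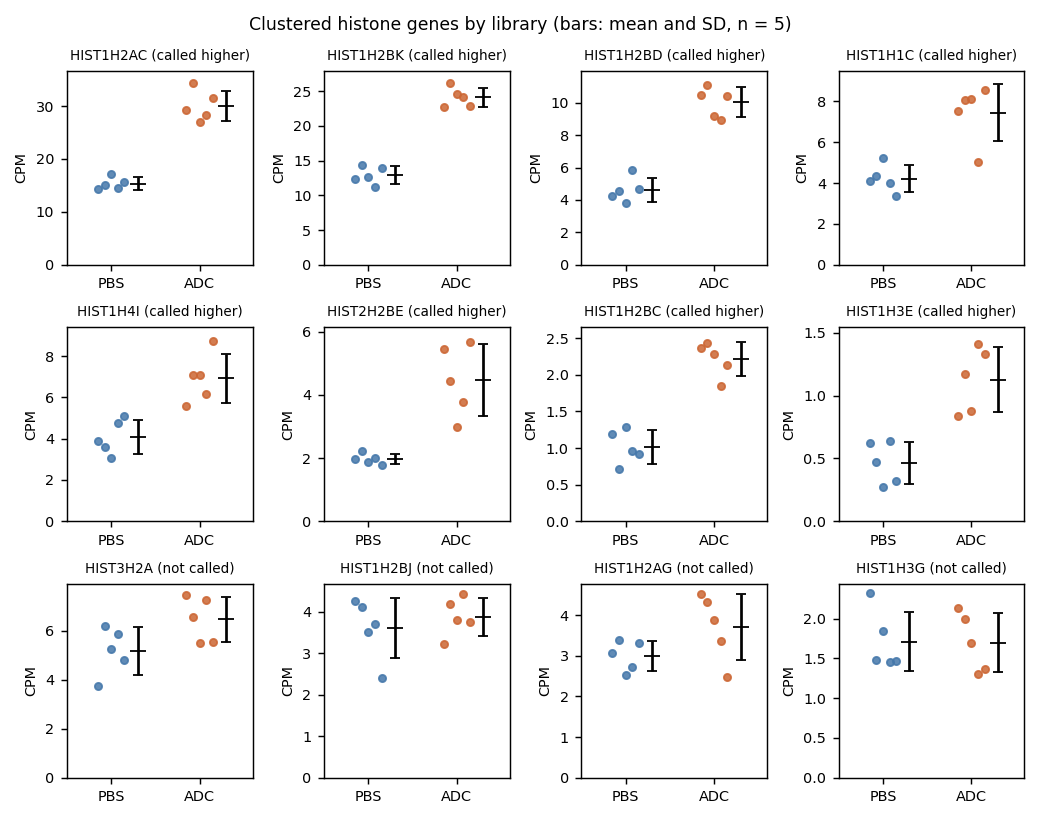
TMM-scaled CPM (vertical axes, starting at 0) of 12 clustered histone genes in each of the 5 PBS and 5 ADC libraries; points are libraries and the black bar beside each group is its mean with SD. The upper 8 panels are the genes called higher, and the lower 4 (HIST3H2A, HIST1H2BJ, HIST1H2AG and HIST1H3G) were not called and overlap between groups.

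H3 and H4 form the central tetramer of the nucleosome. HIST1H3E (chr6:26224199-26227473, plus strand, ENSG00000274750) had 0.624, 0.474, 0.272, 0.636 and 0.324 CPM in PBS and 0.838, 1.17, 0.877, 1.41 and 1.33 in ADC libraries. The means were 0.466 ± 0.167 and 1.13 ± 0.259, without overlap, and the log2 fold change was 1.26 ± 0.36 (edgeR adjusted p = 0.0113) on 8 to 21 counts per PBS library and 29 to 43 per ADC library. It was not tested where a mean of 1 CPM was required. HIST1H3G, the H3 gene with the most counts, was at 1.71 ± 0.375 CPM in PBS and 1.70 ± 0.370 in ADC libraries. HIST1H3H, the next, was at 0.825 ± 0.257 and 0.790 ± 0.387 CPM. Neither differed between groups by more than the spread between libraries. Their log2 fold changes were -0.01 ± 0.24 (adjusted p = 0.991) and -0.05 ± 0.37 (adjusted p = 0.944). The sign for HIST1H3G is positive under library-size scaling, limma-voom and halved counts.

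HIST1H4I (chr6:27138588-27139881, plus strand, ENSG00000276180) was the H4 gene called. It had 3.89, 3.58, 3.06, 4.77 and 5.09 CPM in PBS and 5.58, 7.07, 7.10, 6.18 and 8.72 in ADC libraries, with means of 4.08 ± 0.838 and 6.93 ± 1.19, a log2 fold change of 0.76 ± 0.15 (edgeR adjusted p = 0.000274). Every ADC library lay above every PBS library, by a narrow margin between the nearest libraries. RefSeq gives HIST1H2BK a span of 8566 bases (chr6:27138293-27146858, minus strand) that contains the whole model of HIST1H4I on the other strand. The strand setting of the counting is not given in the sources used here, so reads of HIST1H4I and of a long HIST1H2BK transcript cannot be told apart. HIST1H4H, the H4 gene with the next most counts, was at 1.10 ± 0.305 and 1.36 ± 0.304 CPM (log2 fold change 0.30 ± 0.29, adjusted p = 0.507). The other 3 H4 genes tested were not called and ran from -0.55 (HIST4H4) to 0.32 (HIST2H4B).

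The classes were then summed over all their members, tested or not. All 71 genes together had 70.8 ± 2.31 CPM in PBS, from 67.2 to 73.5, and 117 ± 6.45 in ADC libraries, from 109.2 to 126.7. Summed H2B was 26.9, 30.2, 28.3, 26.9 and 27.8 CPM in PBS and 49.9, 52.6, 48.8, 46.4 and 50.2 in ADC libraries, a log2 ratio of means of 0.82. Summed H2A was 23.5 to 27.6 CPM in PBS and 40.4 to 48.0 in ADC libraries, a log2 ratio of 0.74. The sums of H2A, H2B and H1 did not overlap between groups. Summed H1 was 4.18 to 5.99 CPM and 6.52 to 9.50, a log2 ratio of 0.73. Summed H4 was 6.19 to 9.44 CPM and 8.70 to 11.7, a log2 ratio of 0.48, and summed H3 was 3.46 to 4.41 CPM and 3.78 to 5.43, a log2 ratio of 0.14. The H3 and H4 sums overlapped between groups. No test is given for these sums, since their members were chosen with results known.

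**Figure D3:**
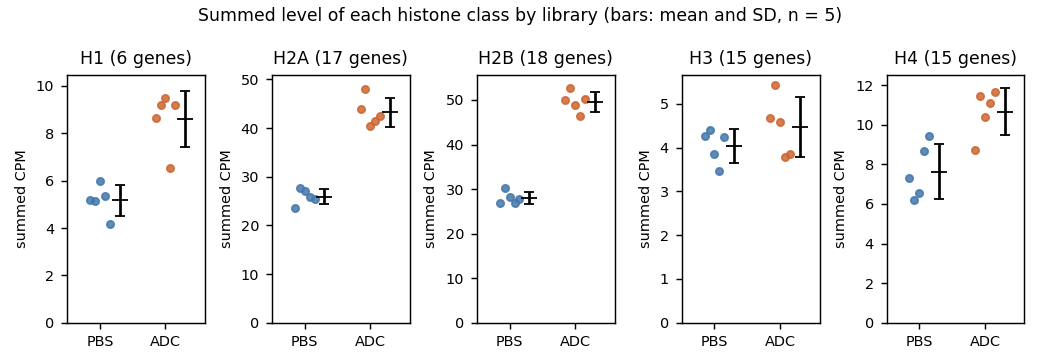
Summed TMM-scaled CPM of each histone class (vertical axes, each starting at 0) in the 5 PBS and 5 ADC libraries; points are libraries and the black bar is the mean with SD. The sums of H1, H2A and H2B are separated between groups, and those of H3 and H4 overlap.

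A single gene carried a large share of each sum. Without its most abundant member, the log2 ratio was 0.24 for H1, 0.32 for H2A, 0.75 for H2B and 0.07 for H4, each below the full sum. For H3 it was 0.24, above the 0.14 of the full sum. Without HIST1H3E, the H3 gene called, summed H3 was 3.58 ± 0.451 CPM in PBS and 3.34 ± 0.844 in ADC libraries. HIST1H2AC and HIST1H2BK together made up 39.9% of the CPM of all 71 genes in PBS and 46.5% in ADC libraries. The 8 genes called had 44.6 ± 1.26 CPM together in PBS and 86.4 ± 6.31 in ADC libraries. The other 63 had 24.5 to 28.2 CPM in PBS and 26.2 to 31.9 in ADC libraries, with overlapping groups, where the split follows the calls and is a description only.

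The share of each class in the histone sum was taken within each library. H2B made up 38.4% to 41.1% under PBS and 41.5% to 43.1% under ADC. H3 made up 4.93% to 6.37% and 3.28% to 4.29%, and neither class overlapped. The shares of H1, H2A and H4 overlapped between groups, at means of 7.32% and 7.37%, 36.6% and 37.1%, and 10.8% and 9.15%. Shares sum to a whole, so that of H3 can be lower in ADC libraries while its summed level overlaps between groups.

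Levels of different genes were compared per kilobase of gene model. In PBS libraries HIST1H2BK had 33.9 ± 3.28 CPM per kilobase, the highest of the set, over a model that holds coding sequence alone. HIST1H2AC followed with 9.19 ± 0.695, a gap larger than the spread of either. Below it HIST1H1C (6.54 ± 1.03), HIST3H2A (5.79 ± 1.09) and HIST1H2BD (5.30 ± 0.863) did not differ beyond their spread in CPM per kilobase. In ADC libraries HIST1H2BK had 63.3 ± 3.69 and HIST1H2AC 18.0 ± 1.72 CPM per kilobase. The whole set summed to 88.8 ± 4.79 CPM per kilobase in PBS and 147 ± 7.70 in ADC libraries. The 12 replication-independent histone genes summed to 618 ± 26.7 and 597 ± 14.4.

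Detection was also counted by kind of gene model. Of the 34 genes whose models end at the stop codon, 20 had a count, 7 were tested and 2 (HIST1H1C and HIST1H2BK) were called higher. Of the 26 with extended or spliced models, 25 had a count, 19 were tested and 6 were called higher. Of the 11 short single-exon models, 9 had a count, 3 were tested and 0 were called. Among all genes tested, 10.8% were called higher. Longer models can collect more reads, and some models that end at the stop codon lie under exons of other genes. The part of model length and of overlap in these counts was not tested. HIST1H2AC, HIST1H2BC, HIST1H2BD, HIST1H1C, HIST1H3E and HIST1H4I shared no 100-base window with another gene of the annotation. HIST2H2BE shared 2.63% of its windows, and HIST1H2BK shared 28.4%, with the histone gene H2BFS.

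Several H2A and H2B genes start close together in opposite directions and so share a promoter region. HIST1H2BC and HIST1H2AC, whose starts are 219 bases apart, were both called higher. In the pair HIST2H2BE and HIST2H2AC, with 323 bases between starts, HIST2H2BE was called and HIST2H2AC was not (0.651 ± 0.393 CPM in PBS and 0.715 ± 0.306 in ADC libraries, log2 fold change 0.13 ± 0.43, adjusted p = 0.873). HIST1H2BK lies 331 bases from HIST1H2AH, which had at most 17 counts in a library and was not tested. The pairs of HIST1H2BJ with HIST1H2AG (292 bases) and HIST1H2BG with HIST1H2AE (283 bases) had no gene called. HIST1H2AG was at 3.0 ± 0.374 CPM in PBS and 3.71 ± 0.814 in ADC libraries (log2 fold change 0.31 ± 0.17, adjusted p = 0.218). Whether the partners within a pair differ in response was not tested. The pairs were described after the values were seen.

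Along the HIST1 cluster (chr6:25726132-27893843) the 7 genes called lay in 2 places. HIST1H1C, HIST1H2BC, HIST1H2AC, HIST1H2BD and HIST1H3E lie between chr6:26055787 and chr6:26227473, and HIST1H4I and HIST1H2BK between chr6:27138588 and chr6:27146798. Tested genes that were not called lie among them, including HIST1H1E, HIST1H2BE and HIST1H2BG in the first stretch. HIST1H2AI, HIST1H3H, HIST1H2BN, HIST1H2AL and HIST1H2BO, between chr6:27808199 and chr6:27893843, were tested and not called. The stretches were drawn from the calls, and the histone genes themselves are not evenly spaced. The interval also holds 20 other protein-coding genes, of which 11 were tested, 3 were called higher and 1 lower. The share called higher was 27.3% of these tested neighbours, 27.6% of the tested clustered histone genes and 10.8% of all genes tested. Over all genes tested, 10% were called lower. BTN3A1 and BTN2A2, members of the butyrophilin family, had log2 fold changes of 0.44 ± 0.11 (edgeR adjusted p = 0.00403) and 0.44 ± 0.12 (adjusted p = 0.0066). HMGN4, a nucleosome-binding protein, had 0.24 ± 0.04 (adjusted p = 0.000125). HFE, the haemochromatosis gene, which lies among the histone genes of the first stretch, had -0.37 ± 0.10 (adjusted p = 0.00599) and was the gene called lower.

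**Figure D4:**
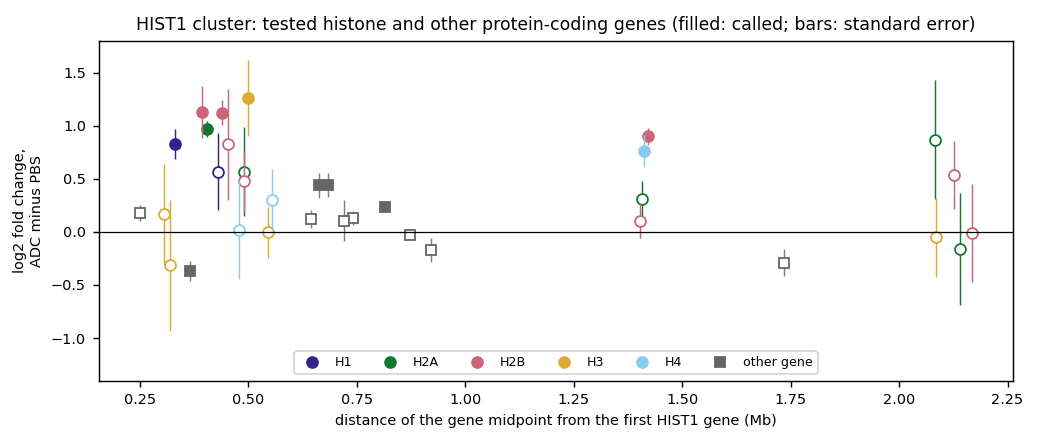
Log2 fold change (ADC minus PBS, vertical axis) of the tested genes of the HIST1 interval against the distance of each gene's midpoint from the first HIST1 gene in megabases; circles are histone genes coloured by class, grey squares are other protein-coding genes, filled symbols were called and bars are standard errors. The 7 histone genes called fall in 2 stretches, and HFE is the called gene below 0.

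Of the 12 replication-independent histone genes, all tested, 3 (25%) were called higher and 4 lower, and their median log2 fold change was -0.08. Over all genes tested, 10.8% were called higher and 10% lower, and of the tested clustered histone genes 27.6% were called higher. H1F0, a linker histone known to accumulate in cells that have stopped dividing, was at 61.0 ± 2.05 CPM in PBS and 88.7 ± 5.01 in ADC libraries (log2 fold change 0.54 ± 0.04, edgeR adjusted p = 1.04e-10). H1FX, another linker histone, had 0.37 ± 0.07 (adjusted p = 0.000377), and H2AFJ, an H2A variant described in senescent cells, had 0.29 ± 0.07 (adjusted p = 0.00205). H2AFV fell by 0.23 (SE 0.03, adjusted p = 4.52e-06), H2AFY, encoding macroH2A, by 0.15 (SE 0.03, adjusted p = 0.00155) and H2AFZ, encoding H2A.Z, by 0.13 (SE 0.04, adjusted p = 0.0165). The called changes of this list were smaller in log2 than those of the 8 clustered genes. Their standard errors were also smaller (at most 0.07, against 0.08 to 0.36), so smaller changes could be called in this list. Exons of genes on the other strand overlap 22.9% of H1FX and 30.9% of H2AFY. The call of H2AFZ was lost without any of 4 single libraries (PBS 2, PBS 3, ADC 1 or ADC 4), with adjusted p up to 0.0679.

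Genes that act on histone messages were then counted, against 10.8% of all genes tested called higher and 10% lower. Of 21 genes for processing and turnover of histone mRNA, which include SLBP and the U7 proteins, 1 was higher and 5 were lower. SYMPK, the scaffold of the cleavage complex, had a log2 fold change of 0.15 ± 0.05 (edgeR adjusted p = 0.019). NCBP1, of the nuclear cap-binding complex, fell by 0.20 (SE 0.04, adjusted p = 0.000178), CSTF2 by 0.13 (SE 0.04, adjusted p = 0.0136) and CPSF2 by 0.12 (SE 0.03, adjusted p = 0.0166). These changes were small beside those of the histone genes. Of 17 genes of canonical polyadenylation, 2 were higher (CPSF1, 0.10 ± 0.03, adjusted p = 0.0287, and RBBP6, 0.17 ± 0.06, adjusted p = 0.0325) and 3 lower. PABPC1, the cytoplasmic poly(A)-binding protein, fell by 0.15 (SE 0.03, adjusted p = 7.95e-05), PAPOLA, the poly(A) polymerase, by 0.17 (SE 0.03, adjusted p = 0.00013) and CSTF3 by 0.18 (SE 0.05, adjusted p = 0.0118). Some of these calls were lost when 1 library was left out, with adjusted p of 0.0508 to 0.113. That held for SYMPK without PBS 3, ADC 3 or ADC 5, for CSTF2 without ADC 4, for CPSF2 without PBS 3 or PBS 5 and with library-size scaling (adjusted p = 0.0578), for CPSF1 without PBS 3, PBS 4, PBS 5 or ADC 4, and for RBBP6 without PBS 2, PBS 3, PBS 5 or ADC 1.

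Genes tied to the S phase, when histone genes are normally transcribed, were counted against the same shares. Of 9 genes for histone gene transcription, 0 were higher and 5 lower. The 5 were cyclins, CDK2 and CDC25A, and the transcription factors of the list (HINFP, POU2F1, YY1 and E2F1) were not called. NPAT was counted with the processing genes and was not called (log2 fold change -0.08 ± 0.06, edgeR adjusted p = 0.395). These uncalled genes were named after their values were seen. CDC25A, a phosphatase that activates cyclin-dependent kinases, fell by 0.32 (SE 0.04, edgeR adjusted p = 4.44e-07), CCNA2, encoding cyclin A2, by 0.15 (SE 0.04, adjusted p = 0.00402) and CDK2 by 0.17 (SE 0.05, adjusted p = 0.0134). The call of CDK2 was lost without PBS 3 (adjusted p = 0.059) and without ADC 2 (adjusted p = 0.0551). Of 22 DNA replication genes, 0 were higher and 12 lower. RRM2 and RRM1, subunits of ribonucleotide reductase, fell by 0.27 (SE 0.03, adjusted p = 2.46e-07) and 0.15 (SE 0.03, adjusted p = 0.00031), and GINS2, part of the replicative helicase, by 0.34 (SE 0.04, adjusted p = 7.38e-07). Of 21 histone chaperone genes tested, 0 were higher and 2 lower, a share near that of all genes called lower. NAP1L1 fell by 0.10 (SE 0.03, adjusted p = 0.0066) and SSRP1 by 0.09 (SE 0.03, adjusted p = 0.0485), and the latter was lost with library-size scaling (adjusted p = 0.125), with no filter (adjusted p = 0.07) and without any single library other than PBS 1 or ADC 5 (adjusted p up to 0.138).

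**Figure D5:**
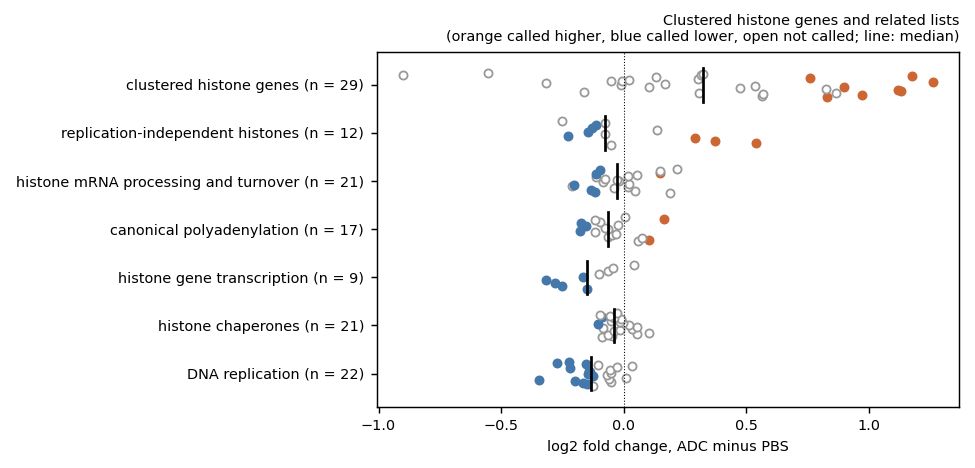
Log2 fold change (ADC minus PBS, horizontal axis) of each tested gene of the clustered histone set and of 6 related lists; orange points were called higher, blue points lower, open points were not called, and the black line is the median of the list. The median is 0.32 for the clustered histone genes and -0.13 for the DNA replication genes.

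Rows for histone genes of other biotypes, 19 in all, chiefly pseudogenes, gave no call: 12 were at 0 in every library and 2 were tested. Their summed level was 3.32 to 4.72 CPM in PBS and 3.16 to 6.35 in ADC libraries, with overlapping groups.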

How the data were processed

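Gene counts of 10 CH157-MN libraries were used. The deposited table gives whole-number counts per gene that the authors did not normalise, with gene length and position. The submitters' processing notes name HISAT2, HISAT, TopHat2 and hg38 without roles, and for the counter, its strand setting and the annotation the answer is: not given in the sources used here. The table's 58735 identifiers all matched GENCODE release 29 with the same start and end, so gene models were read from it. Per the labels' protocols, RNA was selected on poly-T beads and copied with random hexamers.

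Counts were scaled by TMM factors and tested across all genes with edgeR 4.0.16 (quasi-likelihood test, R 4.3.3) after a filter on low counts (minimum count 10, minimum total 15). P-values were adjusted by the Benjamini-Hochberg method over 14504 genes, at a threshold of 0.05. Standard errors were derived from the fold change and its F statistic. The fit was tested on simulated data. Alternatives were RLE and library-size scaling, DESeq2 1.42.0, limma-voom (limma 3.58.1), other filters, halved counts, a replicate block and leaving out each library. Library totals were 28262162 to 36463724. Within each group, counts of any pair of libraries differed beyond sampling noise (chi-square over its degrees of freedom, 5.18 to 16.5), so each was counted once.

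The members and the lists were chosen with earlier results of these data known. Named by rule were each member called, the 2 most abundant members of each class and, from each other list, up to 3 genes called in each direction by adjusted p. Promoters came from RefSeq (GRCh38.p14). One leukocyte marker is not reported here.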

Additional observations from a re-analysis of the deposited data

Results flagged for a closer look

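The summed H1 level of library ADC 4 was 6.52 CPM, and the other ADC libraries were at 8.64 to 9.50. The gap to its nearest neighbour was 0.712 of the group's range, above the Dixon critical value of 0.71 for 5 libraries. HIST1H1C, the main H1 gene, had 147 counts there and 244 to 296 in the other ADC libraries. Without ADC 4 its log2 fold change was 0.95. Among 36 groups of library values examined this was the 1 so marked, and chance marks about 1 in 20.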

How the results depend on the processing

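The number of clustered histone genes called higher was 7 to 8 over the 8 alternatives in scaling, tool, filter, block and halving, and 8 to 9 when each library was left out. HIST1H3E was not tested at a mean of at least 1 CPM, and HIST3H2A was gained without PBS 2. None was called lower under any of these. The 8 genes of the main test were called under each of the others that tested them. Over all genes, 1551 to 1835 were called higher and 1063 to 1559 lower, and 1311 to 1595 and 1180 to 1385 when each library was left out. Library-size scaling moved the share of higher calls from 51.8% to 63.3%.

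Of the 21 tested members not called, 13 kept 1 sign under the settings that gave an adjusted p and 8 did not. HIST1H3G was 0.0172 with library-size scaling, 0.0089 with limma-voom and 0.00673 with halved counts. HIST1H2BO was 0.0104 with library-size scaling, 0.21 with limma-voom and 0.15 with the replicate block. With limma-voom HIST1H2AL was 0.0219 and HIST1H4E -0.0366. Leaving out each library gave -0.10 to 0.13 for HIST1H3G, -0.33 to 0.13 for HIST1H3H, -0.21 to 0.45 for HIST1H2BO, -0.43 to 0.22 for HIST1H2AL, -0.0117 to 0.17 for HIST1H2BJ, -0.59 to 0.12 for HIST1H3C, -0.22 to 0.27 for HIST1H4E and -0.0895 to 0.49 for HIST2H2AC. The cause was not tested. HIST3H2A was 0.40 without PBS 2. Leaving out the most abundant member moved the log2 ratio of class sums to 0.24 for H1, 0.32 for H2A, 0.75 for H2B and 0.0697 for H4, all lower than the full sum, and to 0.24 for H3, higher than its full sum of 0.14. Leaving out each library gave 0.67 to 0.82 for H1, 0.70 to 0.77 for H2A, 0.80 to 0.85 for H2B, 0.06 to 0.20 for H3 and 0.42 to 0.57 for H4.

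Libraries with the same replicate number did not deviate together (correlation -0.005 to 0.024), so the numbers do not pair them, and every number correlated more with another number (0.038 to 0.118). With the replicate block 8 clustered histone genes were called. Alternatives for genes of the other lists were added after seeing the data. The 25 members with at most 22 counts in a library gave no call: without the filter 54 members were tested and no further one was called. At this depth differences in them can go uncalled, and among them HIST2H2AA4 did not overlap between groups.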
